A study of Saccharomyces cerevisiae with 6 samples.

Results

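The genes described here encode the 5 enzymes of Saccharomyces cerevisiae that make and interconvert glutamate and glutamine: GLT1 (YDL171C), GDH1 (YOR375C), GDH2 (YDL215C), GDH3 (YAL062W) and GLN1 (YPR035W). They were chosen as the named enzymes of this pathway, with earlier results of these data known. Each was measured by 1 probe set of its own on an Affymetrix array, and together they are 5 of the 5449 genes with a value. Cultures of the haploid laboratory strain BY4742 had been kept for 5 h in the rich medium YPD that contained either clioquinol (CQ) at 80 µM or the solvent dimethyl sulfoxide (DMSO) at 1%, 3 biological replicates each with 1 array per culture. CQ, a hydroxyquinoline drug, is a chelator of metal ions that include iron, zinc and copper. How much DMSO the CQ cultures held is not in the labels, so effects of the solvent and of CQ cannot be told apart, and p-values measure the spread between cultures that the labels call biological replicates. The comparison asks how transcript levels differed between CQ and DMSO cultures.

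Yeast builds glutamate from ammonium along separate routes. The NADP-dependent glutamate dehydrogenases Gdh1 and Gdh3, a pair of paralogues, add ammonium to 2-oxoglutarate. In the other route glutamine synthetase, Gln1, adds ammonium to glutamate, and glutamate synthase, Glt1, transfers the amide nitrogen of glutamine to 2-oxoglutarate. Glt1 is a large NADH-dependent flavoprotein that carries iron-sulfur (Fe-S) clusters, which the dehydrogenases lack. Gdh2, the NAD-dependent dehydrogenase, runs the reaction the other way and releases ammonium from glutamate. Glutamate and glutamine supply the nitrogen of most other nitrogen compounds of the cell. The transcription of GDH3 and GDH2 is known to be repressed by glucose.

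Median intensities over all genes ranged from 976.9 to 1008 on the CQ arrays and from 889.7 to 926.1 on the DMSO arrays. The array also carries probe sets for fission yeast genes, and the background, set at their 95th percentile, lay between 41.8 and 59.8 on the 6 arrays. The deleted marker genes LEU2, LYS2 and URA3 had mean intensities of 33.6, 9.82 and 18.6 with CQ and 45.4, 11.7 and 16.5 with DMSO. HIS3, of which the strain lacks only an internal part, had 881 with CQ and 1598 with DMSO, which does not check the label if its probes lie outside that part. The 3' to 5' index, the mean log2 ratio of the 3' over the 5' probe sets of 6 control genes which reflects RNA integrity and labelling, was 1.30, 1.53 and 1.15 on the CQ arrays and 0.96, 0.96 and 0.88 on the DMSO arrays. Every CQ array had a higher index than every DMSO array, so the index and CQ cannot be told apart. Values adjusted for the index rest on the spread within the groups and have wider standard errors for the 5 genes. CQ replicate 2 had the highest index of the 6 arrays. The 5 genes and the ratios between them that are described below are therefore also given without it. The counts and medians of the gene lists are given without it where these moved.

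The 5 genes split in 2 directions. GLN1, GLT1 and GDH1 fell with CQ, each to less than 0.5 of its DMSO level, and GDH2 and GDH3 rose by about 1.8-fold. All 5 passed the threshold, an adjusted p under 0.05 over all 5449 genes (limma, two-sided, on log2(intensity + 16)), and for all 5 the 3 CQ arrays lay wholly to one side of the 3 DMSO arrays. Differences were common on these arrays: 68.0% of all genes passed, with 31.9% lower and 36.1% higher, and the groups did not overlap for 73.7% (35.1% lower and 38.6% higher). With each array centred on its median, 1578 genes were higher and 2211 lower, against 1969 and 1739 as deposited, and the median gene moved to -0.11, against 0.02 as deposited. Intensities are relative to the other transcripts of an array, and in a bulk culture fewer cells that express a gene and less of its RNA per cell cannot be told apart.

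**Figure D1:**
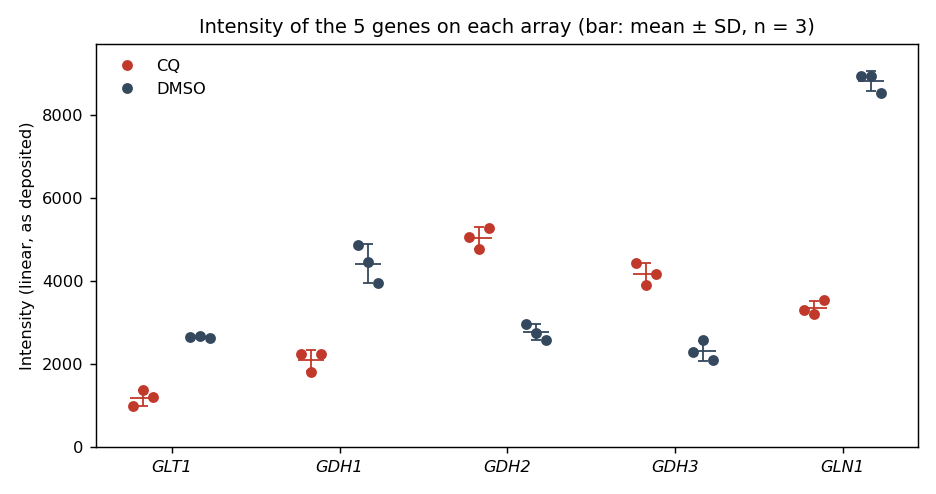
Deposited linear intensity (y axis) of the 5 genes on each of the 6 arrays, with the 3 CQ arrays to the left of the 3 DMSO arrays for each gene; bars give the mean ± SD of a group. GLT1, GDH1 and GLN1 are lower on every CQ array than on any DMSO array, and GDH2 and GDH3 are higher.

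GLT1 had intensities of 975, 1363 and 1197 on the CQ arrays, against 2648, 2663 and 2614 on the DMSO arrays. The DMSO arrays lay close together, with a standard deviation of 0.01 on the log2 scale, while the CQ arrays spread by 0.24, the widest spread of the 5 genes in either group. The mean was 1178 ± 194 with CQ and 2641 ± 25.3 with DMSO (SD, n = 3 each). The log2 difference was -1.17 ± 0.12 (SE, limma adjusted p = 6.44e-05), which places DMSO 2.25-fold above CQ. It was -1.28 without CQ replicate 2 and -1.04 without CQ replicate 1.

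GLT1 is by far the longest of the 5 genes, with a coding length of 6438 bases, and length moved with the result. Over all genes the CQ minus DMSO difference increased with coding length, and the fitted trend stood at 0.80 at the length of GLT1, where 28 genes are at least as long. With that trend removed the difference of GLT1 was -1.94 (3.85-fold lower with CQ). After adjustment for the 3' to 5' index it was -1.41 ± 0.22 (SE, limma adjusted p = 0.00121).

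GLN1, the partner of GLT1 in the same route, had the largest difference of the 5 and the smallest spread with CQ. Its intensities were 3304, 3200 and 3526 on the CQ arrays, against 8940, 8940 and 8519 on the DMSO arrays. The mean was 3344 ± 166 with CQ and 8800 ± 243 with DMSO (SD, n = 3 each), a log2 difference of -1.39 ± 0.07 (SE, limma adjusted p = 3.25e-06), or 2.63-fold higher with DMSO. Without CQ replicate 2 the difference was -1.36. On the DMSO arrays GLN1 reached 62.2% of the brightest probe set of the array, and differences of bright transcripts can be understated.

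GDH1, the dehydrogenase known to make most glutamate in cells growing on glucose, also fell. Its intensities were 2246, 1797 and 2225 on the CQ arrays, against 4864, 4442 and 3938 on the DMSO arrays. The mean was 2090 ± 254 with CQ and 4415 ± 464 with DMSO (SD, n = 3 each). The log2 difference was -1.08 ± 0.12 (SE, limma adjusted p = 9.46e-05), and it was -0.97 without CQ replicate 2 and -0.82 after adjustment for the 3' to 5' index. On CQ replicate 2 GDH1 was at its lowest and GLT1 at its highest among the CQ arrays.

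GDH3, the paralogue of GDH1, went the opposite way. Its intensities were 4424, 3910 and 4164 on the CQ arrays, against 2278, 2576 and 2099 on the DMSO arrays. The mean was 4166 ± 257 with CQ and 2317 ± 241 with DMSO (SD, n = 3 each), a log2 difference of 0.84 ± 0.10 (SE, limma adjusted p = 0.000123) and 0.89 without CQ replicate 2. GDH1 and GDH3 have related sequences, and signal shared between their probe sets was not tested.

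GDH2, which breaks glutamate down, rose by nearly the same amount as GDH3. Its intensities were 5052, 4754 and 5278 on the CQ arrays, against 2968, 2736 and 2582 on the DMSO arrays. The mean was 5028 ± 263 with CQ and 2762 ± 194 with DMSO (SD, n = 3 each), a log2 difference of 0.86 ± 0.08 (SE, limma adjusted p = 5.08e-05) and 0.90 without CQ replicate 2. GDH2 is the second longest of the genes, with 3279 bases, where the length trend stood at 0.42, and with the trend removed its difference was 0.47 (limma adjusted p = 0.00153).

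Among all 5449 genes ordered from the largest decrease to the largest increase, GLN1 stood at place 182, GLT1 at 295 and GDH1 at 347, which is at percentiles 3.34, 5.41 and 6.37. These 3 were among the 409 genes that fell at least 2-fold, 7.51% of the genes tested. GDH3 and GDH2 stood at percentiles 87.1 and 87.4, so their increases were less extreme among all genes than the 3 decreases. The fission yeast probe sets named gln1, glt1, gdh1 and gdh2 stayed between 7.83 and 32.9 on all 6 arrays, below the background of each array.

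**Figure D2:**
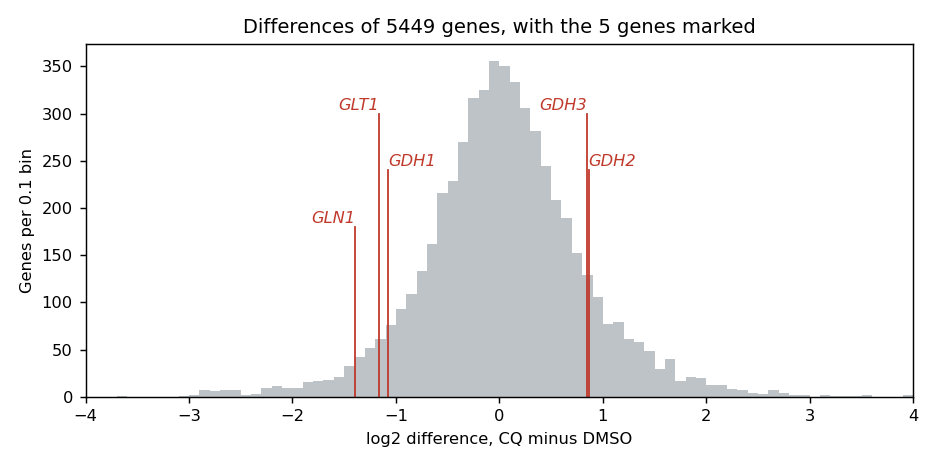
Histogram of the log2 difference between CQ and DMSO (x axis) over 5449 genes, as genes per bin of 0.1 (y axis), with red lines at the 5 genes; 7 genes lie beyond the plotted range. GLN1, GLT1 and GDH1 lie in the lower tail between -1.39 and -1.08, and GDH3 and GDH2 lie almost on one another at 0.84 and 0.86.

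The Fe-S enzyme was then set against the dehydrogenases within each array, as the log2 ratio of GLT1 to the mean of GDH1, GDH2 and GDH3. That ratio was -1.90, -1.23 and -1.60 on the CQ arrays and -0.27, -0.24 and -0.09 on the DMSO arrays, so every CQ array lay below every DMSO array. The difference was -1.38 ± 0.20 (SE, n = 3 each), with p = 0.1 in an exact permutation test (two-sided), and 3 against 3 arrays cannot give a smaller p. It was -1.55 without CQ replicate 2 and -2.04 with the length trend removed. The mean of the dehydrogenases averages over genes that moved in opposite directions, so the ratios to single genes follow.

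The ratio of GLT1 to GDH2 differed by -2.03 ± 0.17 between CQ and DMSO, and the ratio of GLT1 to GDH3 by -2.01 ± 0.20 (SE, n = 3 each). Without CQ replicate 2 these were -2.18 and -2.17. The groups did not overlap, which follows from GLT1 being lower and GDH2 and GDH3 higher on every CQ array. The ratio of GLT1 to GDH1 differed by only -0.09 ± 0.25 and its groups overlapped: it was -1.19, -0.40 and -0.89 on the CQ arrays and -0.87, -0.73 and -0.59 on the DMSO arrays. Without CQ replicate 2 the ratio differed by -0.31 and the groups only just failed to overlap, at -0.89 on a CQ array and -0.87 on a DMSO array. Without CQ replicate 1 the sign turned, and GDH1 stood at -0.09 relative to GLT1. The comparison of GLT1 with GDH1 also moved with the other settings, and GDH1 stood 0.09 above GLT1 as deposited, 0.59 after adjustment for the 3' to 5' index and 0.90 with the length trend removed. Whether GLT1 fell further than GDH1 is thus not settled by these arrays. GLN1 stood -0.23 from GLT1 as deposited, -0.08 without CQ replicate 2, 0.13 after adjustment for the index and 0.63 with the length trend removed, so its direction relative to GLT1 depended on the setting. As deposited, the ratio of GLT1 to GLN1 differed by 0.23 ± 0.15 (SE, n = 3 each), and 1 CQ array lay within the range of the DMSO arrays.

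Between the paralogues, the ratio of GDH1 to GDH3 was -0.97, -1.11 and -0.90 on the CQ arrays and 1.09, 0.78 and 0.90 on the DMSO arrays, a difference of -1.92 ± 0.11 (SE, n = 3 each) and -1.86 without CQ replicate 2. The sign of a ratio between probe sets says nothing about which transcript was more abundant, but its shift shows unequal change. Each CQ array lay far from each DMSO array, and the lack of overlap follows from the opposite directions of GDH1 and GDH3. The ratio of GDH2 to GDH3 overlapped between the groups, at 0.19, 0.28 and 0.34 on the CQ arrays and 0.38, 0.09 and 0.30 on the DMSO arrays (difference 0.02 ± 0.10, and 0.01 without CQ replicate 2). With the length trend removed the difference of that ratio was -0.41, and the groups no longer overlapped. The log2 ratio of GDH1 to GLN1 was 0.32 ± 0.10 higher with CQ, with no overlap. It was 0.39 higher without CQ replicate 2, and 0.27 with overlap once the length trend was removed. Of the 10 pairs among the 5 genes, 7 had groups without overlap. Each of the 7 had an exact permutation p of 0.1, and 0.143 after adjustment over the 10 pairs. The other 3 were GLT1 with GDH1, GLT1 with GLN1, and GDH2 with GDH3. Where a gene that fell is paired with a gene that rose, the lack of overlap and its p follow from the single genes. Such pairs are no separate result, and of the 7 only GDH1 with GLN1 joins genes that moved the same way. Without CQ replicate 2 the groups did not overlap for 8 pairs.

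**Figure D3:**
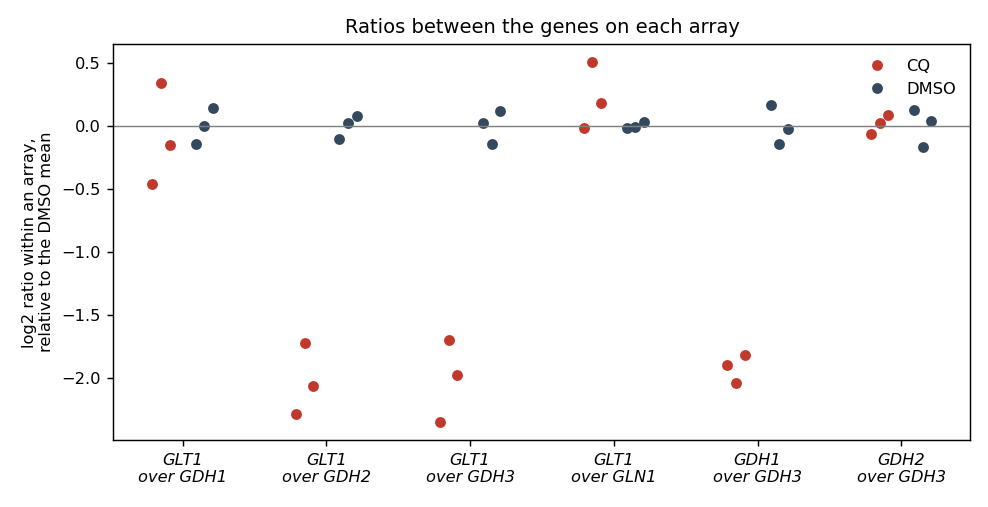
Log2 ratio between pairs of the genes within each array (y axis), drawn relative to the mean of the DMSO arrays, with CQ arrays to the left of DMSO arrays. The ratios of GLT1 to GDH2, GLT1 to GDH3 and GDH1 to GDH3 are about 2 units lower on the CQ arrays, and the groups overlap for GLT1 over GDH1, GLT1 over GLN1 and GDH2 over GDH3.

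A limma fit over the ratios of 5448 genes to GLT1 gave GDH2 a difference of 2.03 ± 0.20 and GDH3 one of 2.01 ± 0.20 relative to GLT1 (SE), both past the threshold. Because every ratio carries the same GLT1 values, this fit gave all 4 genes the same standard error, its p-values are too small, and it called 90.5% of all genes. GDH1 (0.09 ± 0.20, limma adjusted p = 0.653) and GLN1 (-0.23 ± 0.20, limma adjusted p = 0.266) did not pass even there, nor without CQ replicate 2, where GDH1 stood at 0.31 (limma adjusted p = 0.0589).

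**Figure D4:**
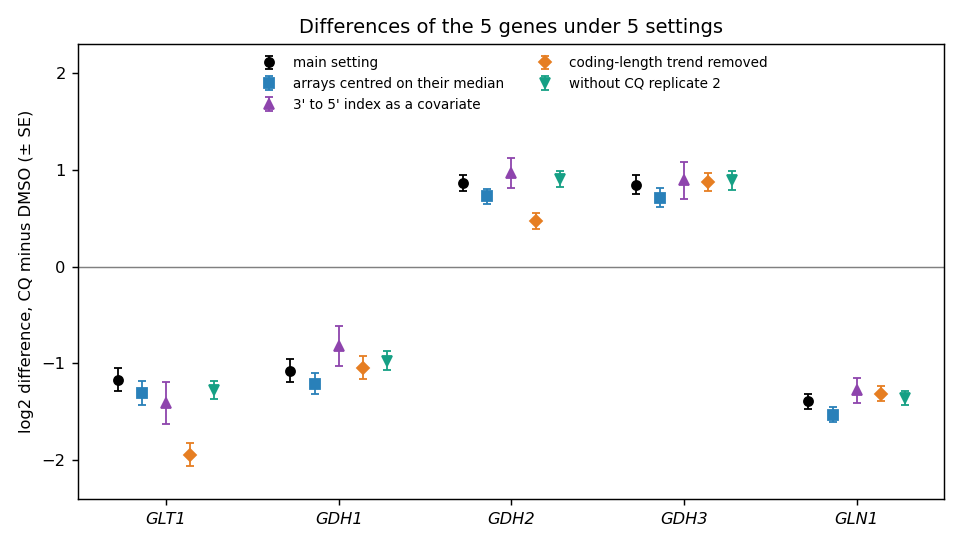
Log2 difference between CQ and DMSO ± SE (y axis) of the 5 genes under the main setting and 4 others. The direction of each gene is the same under all 5 settings shown; removing the coding-length trend shifts GLT1 to -1.94 and GDH2 to 0.47, while GDH1, GDH3 and GLN1 move little.

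The genes with the most similar pattern were taken as those with the smallest Euclidean distance over the 6 arrays, after subtraction of each gene's DMSO mean on the log2 scale. For GLT1 these were LIP5, which encodes lipoic acid synthase (distance 0.22), CYC7, a cytochrome c isoform (0.25), and CTO1 (0.26). For GDH1 they were IRC7 (0.17), BIO4 of biotin synthesis (0.18) and MOD5, a tRNA-modifying enzyme (0.18). GDH2 was closest to UBR2, POB3 and HOS1 (0.11 each), and GDH3 to PRP8 (0.12), SGA1 (0.15) and CDC26 (0.16). The closest match of all was that of GLN1 with SCS7, a sphingolipid hydroxylase gene (0.05), followed by KIN3 and NRP1 (0.11 each). SCS7 had 2580, 2525 and 2751 on the CQ arrays and 6820, 6845 and 6735 on the DMSO arrays.

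Genes around the 5 enzymes were described in 8 lists with 76 genes, of which 74 were measured: 13 rose, 32 fell and 29 did not pass, with a median log2 difference of -0.14, against 0.02 over all genes. Without CQ replicate 2, 15 rose and 35 fell. Over all 5449 genes 36.1% rose and 31.9% fell as deposited, and the counts of each list are to be read beside those shares. No list was tested as a set. Adjustment for the 3' to 5' index, which cannot be told apart from CQ, moved several list medians, and the adjusted medians are given beside them. Of each list, the 2 members with the largest difference were named by rule, and any others were chosen after their values were seen.

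Of the 3 ammonium permease genes 2 fell and 1 rose (median -0.99, and -0.64 after adjustment for the index). MEP2, a high-affinity permease and ammonium sensor, had 888, 815 and 1434 with CQ and 2498, 2987 and 1957 with DMSO, a log2 difference of -1.26 ± 0.23, but it did not pass after adjustment for the 3' to 5' index (-0.64, limma adjusted p = 0.191). MEP3 had 1727 ± 189 with CQ and 3436 ± 251 with DMSO (-0.99 ± 0.10). MEP1 rose by 0.81 ± 0.18.

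Genes that supply 2-oxoglutarate, the carbon skeleton of glutamate, were mixed: 3 of 13 rose, 6 fell and 4 did not pass. Their median was -0.15, -0.05 after adjustment for the index, -0.29 with arrays centred on their median and -0.23 without CQ replicate 2. The cytosolic NADP-dependent isocitrate dehydrogenase gene IDP2 had 2374, 1982 and 2419 with CQ and 482, 409 and 359 with DMSO, a log2 difference of 2.40 ± 0.13 and the largest increase in the 8 lists. The subunits of the mitochondrial NAD-dependent enzyme, IDH1 (0.38 ± 0.09) and IDH2 (0.20 ± 0.07), rose by less. ODC1, a mitochondrial carrier that exports 2-oxoglutarate, had 1161 ± 85.7 with CQ and 1981 ± 222 with DMSO (-0.76 ± 0.10). ACO1, the Fe-S enzyme aconitase of the same route, had 7453 ± 559 with CQ and 7847 ± 299 with DMSO (-0.08 ± 0.08, limma adjusted p = 0.437), and its groups overlapped.

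The other Fe-S enzymes of amino acid and sulfite metabolism had a median of -1.47, with 3 of 4 genes lower and none higher. With the dimmest 40% of genes left out the median was -0.83, because that filter dropped LYS4. ILV3, of valine and isoleucine synthesis, had 583 ± 51.3 with CQ and 4310 ± 160 with DMSO. LYS4, homoaconitase of lysine synthesis, had 298 ± 12.6 with CQ and 1341 ± 65.1 with DMSO, 4.32-fold higher with DMSO. LEU1, of leucine synthesis, had 1007 ± 150 with CQ and 1794 ± 76.0 with DMSO. Sulfite reductase MET5 had 1351, 2132 and 1546 with CQ and 1648, 1605 and 1586 with DMSO, and it did not pass (limma adjusted p = 0.878). GLT1, at -1.17, lay between LEU1 (-0.83) and LYS4 (-2.11). The Fe-S enzyme gene ACO1, listed above with 2-oxoglutarate supply, is not among these 4 genes, and it did not pass (-0.08 ± 0.08).

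Transaminases pass the amino group between glutamate and other amino acids. Of 10 transaminase genes 5 fell, 1 rose and 4 did not pass (median -0.30, and -0.51 after adjustment for the index). ARO9, an aromatic transaminase, had 511, 785 and 543 with CQ and 1899, 1811 and 2330 with DMSO (-1.71 ± 0.17), and BAT1, the mitochondrial branched-chain transaminase, had 937 ± 53.1 with CQ and 1779 ± 30.6 with DMSO (-0.91 ± 0.07). ARO8 (-0.89), ALT1 (-0.56) and BAT2 (-0.33) also fell, and AAT1 rose by 0.79 ± 0.09. From glutamate towards proline and ornithine, 4 of 6 genes fell and none rose (median -0.45), PRO1 by 0.60 and PRO3 by 0.55 on the log2 scale, with ARG7 at -0.48 and ARG2 at -0.42. Of the 6 genes of glutamate breakdown and the GABA shunt, only UGA2, succinate semialdehyde dehydrogenase, passed (-0.75 ± 0.09). The median of these 6 was -0.09, and 0.06 after adjustment for the index. UGA4, a GABA permease, differed by -0.21 ± 0.09 (limma adjusted p = 0.0747), and passed in 4 of 18 alternatives, among them arrays centred on their median (-0.35), while adjustment for the index took it to -0.0017 (limma adjusted p = 0.993).

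Of 15 amidotransferase genes, whose products take nitrogen from glutamine, 3 rose, 5 fell and 7 did not pass (median -0.07). GUA1, GMP synthase, had 1761 ± 190 with CQ and 3207 ± 144 with DMSO (-0.86 ± 0.10). ASN1, asparagine synthetase, had 1950 ± 107 with CQ and 3498 ± 77.4 with DMSO (-0.84 ± 0.07). URA2 (-0.76), HIS7 (-0.50) and URA7 (-0.48) also fell, while GFA1 (0.64), CPA1 (0.59) and SNO1 (0.39) rose.

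Regulators of nitrogen and glutamate genes were mixed: of 17, 5 rose, 6 fell and 6 did not pass (median -0.10, 0.12 after adjustment for the 3' to 5' index, and -0.03 without CQ replicate 2). PUT3, the activator of proline use, had 563, 608 and 579 with CQ and 273, 275 and 242 with DMSO (1.10 ± 0.08). LEU3, an activator of leucine synthesis genes that is also known to act on GDH1, had 364 ± 36.5 with CQ and 171 ± 22.7 with DMSO (1.03 ± 0.11). RTG2 (0.58), HAP3 (0.51) and GAT1 (0.30) rose as well. GCN4, the general activator of amino acid synthesis genes, is controlled mainly in its translation, and its transcript fell by 0.50 ± 0.08 on the log2 scale. The others that fell were GZF3 (-0.87), a GATA repressor of nitrogen genes, RTG1 (-0.81), HAP2 (-0.71), HAP4 (-0.48) and UGA3 (-0.37). GLN3, the GATA activator of nitrogen genes that include GLN1, differed by 0.02 ± 0.14 (limma adjusted p = 0.916).

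**Figure D5:**
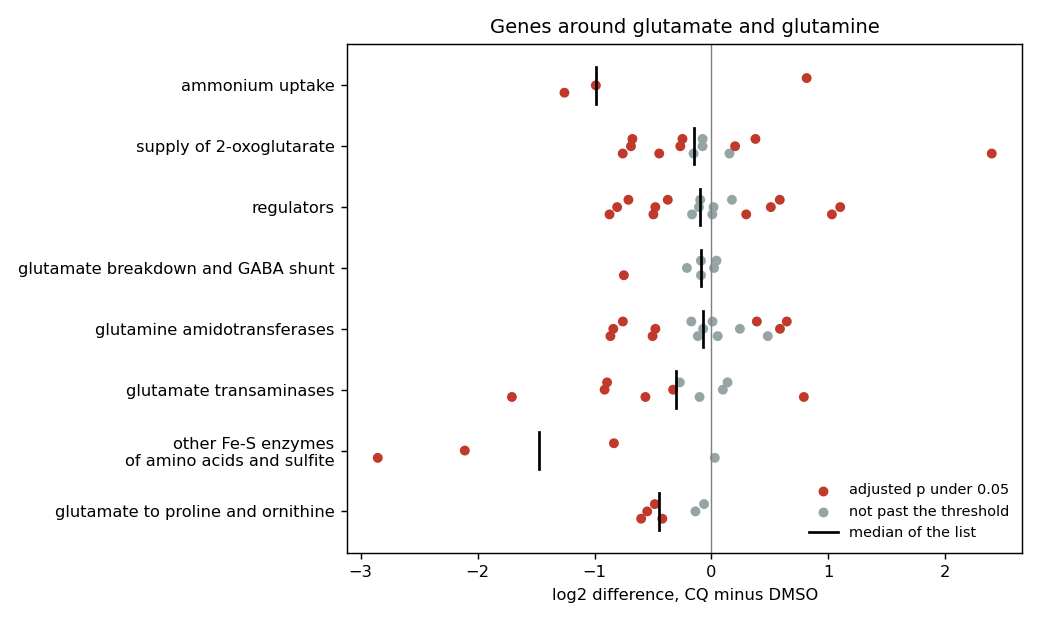
Log2 difference between CQ and DMSO (x axis) of the 74 measured genes of the 8 lists (rows), in red where the limma adjusted p is under 0.05 and grey where it is not; black bars are list medians. IDP2 stands alone at 2.40, and ILV3 and LYS4 are the lowest points at -2.85 and -2.11.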

How the data were processed

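Biotin-labelled cRNA was hybridised to Affymetrix arrays, per the labels' protocols. The authors deposited a linear intensity for each probe set on each array. Which software summarised the probes, and whether arrays were scaled, is not given in the sources used here. GEO's platform annotation paired 5498 of 10928 probe sets with 1 S. cerevisiae gene and 1746 with fission yeast genes. Identifiers were matched to the RefSeq R64 gene table, which updated 12 symbols. For 47 genes with several probe sets the one with the highest mean of log2(intensity + 16) was used. No coordinates are given, since the array annotation names no build.

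Differences were fitted with limma 3.58.1 in R 4.3.3 (lmFit, eBayes, no covariate) with Benjamini-Hochberg adjustment over 5449 genes, and the fit was tested on simulated data. Ratios between genes were compared by exact permutation over arrays. With 3 arrays a group, their number limits the precision. The length trend is a loess fit of the difference on log2 coding length.

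The genes, the lists and the rule for named genes (the 5 genes, the 2 largest differences of each list, the 3 nearest profiles of each gene and the 4 strain markers) were chosen with earlier results of these data known. Alternatives were other array scalings, filters on dim genes, averaged probe sets, other variance models, pseudocounts of 1 and 64, the replicate block, the 3' to 5' index, the length trend and leaving out each array. Listed genes without a value were not analysed here. Plots were drawn with matplotlib 3.10.9.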

Additional observations from a re-analysis of the deposited data

How the results depend on the processing

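GLT1, GDH1, GDH2, GDH3 and GLN1 kept their direction and passed the threshold under all 19 alternatives, with log2 differences from -1.94 to -1.04, -1.21 to -0.82, 0.47 to 0.97, 0.71 to 0.92 and -1.53 to -1.28. The ratio of GLT1 to the mean of the dehydrogenases differed by -2.04 to -1.22 in the 16 alternatives that give it, with exact p-values that cannot pass. Relative to GLT1, removal of the length trend turned GLN1 to 0.63 and brought GDH1 past the threshold at 0.90; the trend of 0.80 at the length of GLT1 makes up most of that shift. Leaving out 1 array each gave GLN1 relative to GLT1 -0.35 to -0.084, and it passed without CQ replicate 1. With the dimmest 40% of genes left out, 1184 genes were higher and 1083 lower, because fewer genes were tested. The labels do not say whether arrays with the same replicate number belong together. Deviations of arrays with the same number correlated by 0.05, 0.12 and 0.14, each higher than with another number, as a hint from the data only. The deviations are from the group mean and sum to 0 within a group, so these comparisons are not independent of one another. The replicate block gave 1971 genes higher and 1738 lower and left GLT1 at -1.17 (limma adjusted p = 0.000136).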

Other observations

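Some further isozymes, and the subunits of a regulator, differed in direction or in whether they passed the threshold, and the differences between them were not tested. These examples were picked after their values were seen. Other isozymes fell together past the threshold, among them PYC1 (-0.27) with PYC2 (-0.25), BAT1 with BAT2, and ARO8 with ARO9. ASN1 fell, while ASN2, the other asparagine synthetase, had 2020 ± 147 with CQ and 2189 ± 98.3 with DMSO (log2 difference -0.12, limma adjusted p = 0.242). The citrate synthase gene CIT2, known as a target of the retrograde pathway from mitochondria to nucleus, fell to 5808 ± 261 with CQ, against 9282 ± 154 with DMSO (-0.68). CIT1, the mitochondrial enzyme, had 9295 ± 139 with CQ and 8350 ± 35.7 with DMSO (0.15, limma adjusted p = 0.0708). Of the NADP-dependent isocitrate dehydrogenases, the mitochondrial IDP1 (-0.69) and the peroxisomal IDP3 (-0.45) fell, opposite to IDP2. Of the 4 subunits of the HAP activator, HAP2 (-0.71) and HAP4 (-0.48) fell, HAP3 rose, and HAP5 differed by -0.10 (limma adjusted p = 0.337).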
